A study of Mus musculus with 6 samples.

Results

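Several kinds of cell line or fill the brain ventricles, and 30 genes chosen as markers of 3 of them are described here across 6 mouse RNA-seq libraries. The list holds 13 choroid plexus genes, 12 genes of ependymal cells with motile cilia and 5 genes listed for tanycytes. Rows were taken where the deposited gene name was on the list. All 30 genes were found among the 51826 genes of the table, and 29 passed the filter on low counts that left 18956 genes for testing. The gene that did not pass was Rax.

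The tissue is labelled as the paraventricular nucleus of the hypothalamus, and the study asked how loss of the metalloprotease ADAM17 from glutamatergic neurons alters gene expression there. The WT group holds 3 libraries of wild-type mice, replicates 1 and 2 from males and replicate F1 from a female. The KO group holds 3 libraries of mice with the knockout, again 2 from males and 1 from a female (F1). The labels name no driver for the deletion, no strain and no age, and do not say whether a library comes from 1 animal or from a pool. The p-values below therefore measure only the spread between these libraries.

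The choroid plexus is a secretory epithelium within the ventricles that makes cerebrospinal fluid and forms a barrier between blood and fluid. Ependymal cells cover the ventricle walls, and their beating cilia move the fluid along. Tanycytes are elongated cells of the floor and lower walls of the third ventricle that sense hormones and nutrients and activate thyroid hormone. None of these 3 cell types is a glutamatergic neuron, although some of the genes listed for them, named below, are also known from neurons. In bulk tissue, fewer cells of a type and less RNA per cell cannot be told apart.

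Depth ran from 35114426 to 54421330 counts per library. Transcripts of the mitochondrial genome made up between 7.22% and 9.20% of the counts in 5 libraries and 20.63% in KO replicate 1, so this library stands apart. Levels below are CPM, that is counts scaled to library size after TMM normalisation, which sets most genes level between libraries. A count of 3, the most that a count of 0 allows, equals between 0.0509 and 0.104 CPM. Adam17 itself lay between 15.6 and 17.2 CPM in WT and between 13.9 and 15.4 CPM in KO, a log2 difference of -0.19 (SE 0.11, edgeR adjusted p = 0.747). The transcripts counted in whole tissue come from all cell types, so this level is no check of a deletion in 1 neuron class.

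Promoter sequences show the DNA letters through which 2 transcription factor families are known to act on motile cilia genes. RFX factors bind sites that contain the half-site GTTGCC, and forkhead factors such as FOXJ1 bind the core TGTTTAC. The windows run from 250 bases before to 50 bases after the RefSeq start of transcription on GRCm38.p6, and both strands were searched. RefSeq windows were given for 8 of the 12 ependyma genes, for 8 of the 13 choroid plexus genes and for 3 of the 5 tanycyte genes. Some genes had more than 1 window, so the 8 choroid plexus genes had 13 windows and the 3 tanycyte genes had 4. The RFX half-site was found in 4 of the 8 ependyma windows (Spag16, Hydin, Dynlrb2 and Ccdc153) and in 12.5% of all 32851 windows. The forkhead core was found in 2 of the 8 (Ak7 and Cfap43) and in 3.6% of all windows. The core TAATCC, bound by OTX factors, was found in 1 of 13 choroid plexus windows, at Otx2, in 1 of the 8 ependyma windows, at Dnah11, and in 7.1% of all windows. The choroid plexus windows also held the RFX half-site in 3 of 13 and the forkhead core in 1 of 13, and the tanycyte windows held none of the motifs. Those RFX half-sites belong to 2 genes, Aqp1 and Otx2, and overlapping windows of Otx2 share a site. No match overlapped a match of another motif. The windows of Cfap43 (chr19:47837312-47837611, minus strand), Ak7 (chr12:105705732-105706031, plus strand) and Spag16 (chr1:69826720-69827019, plus strand) are printed 5′ to 3′. They hold, in that order, a forkhead core, a forkhead core and 2 RFX half-sites on opposite strands, with those letters in capitals. In Spag16 the reverse complement GGCAAC comes first and GTTGCC second.
Cfap43: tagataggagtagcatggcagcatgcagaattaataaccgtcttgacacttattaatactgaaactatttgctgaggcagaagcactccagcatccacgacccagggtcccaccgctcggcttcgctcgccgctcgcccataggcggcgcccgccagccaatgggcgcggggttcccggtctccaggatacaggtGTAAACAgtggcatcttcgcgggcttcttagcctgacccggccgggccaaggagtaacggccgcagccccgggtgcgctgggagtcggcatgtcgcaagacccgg
Ak7: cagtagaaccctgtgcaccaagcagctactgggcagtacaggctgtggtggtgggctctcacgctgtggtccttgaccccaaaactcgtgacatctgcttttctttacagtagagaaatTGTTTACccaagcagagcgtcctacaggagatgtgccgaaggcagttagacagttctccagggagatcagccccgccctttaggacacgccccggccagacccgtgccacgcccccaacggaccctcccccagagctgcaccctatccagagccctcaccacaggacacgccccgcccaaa
Spag16: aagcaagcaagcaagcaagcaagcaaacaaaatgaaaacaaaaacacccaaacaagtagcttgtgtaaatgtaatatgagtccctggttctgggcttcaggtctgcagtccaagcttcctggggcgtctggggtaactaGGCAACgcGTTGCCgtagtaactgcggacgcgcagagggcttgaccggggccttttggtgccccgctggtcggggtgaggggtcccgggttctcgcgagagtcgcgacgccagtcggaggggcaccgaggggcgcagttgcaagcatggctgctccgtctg
The first base of the forkhead core lies 55 bases before the start in Cfap43, on the reverse strand, and 131 bases before it in Ak7. In Spag16 the half-sites begin 111 and 103 bases before the start. A match describes letters in the window and is no evidence of binding in this tissue.

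Of the 13 choroid plexus genes, none passed the test between genotypes, and the largest differences lay between libraries of the same genotype. Ttr encodes transthyretin, the thyroid hormone and retinol carrier that the choroid plexus secretes into the fluid. Its WT levels, in the order of replicates 1, 2 and F1 used throughout, were 415, 667 and 135 CPM, and its KO levels in the same order were 359, 374 and 289 CPM. The WT libraries span the whole range, with all 3 KO libraries between the WT extremes. The log2 difference of Ttr between KO and WT was -0.02 (SE 0.39, edgeR adjusted p = 0.991). On the per-length scale of TPM (transcripts scaled to a fixed total), Ttr averaged 781 ± 508 in WT and 542 ± 109 in KO (SD, n = 3 each). In TPM it made up most of the summed level of the 13 genes in every library.

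Among secreted proteins and enzymes of the choroid plexus, Enpp2, Kl, Sostdc1 and F5 were read. Enpp2 encodes autotaxin, which makes lysophosphatidic acid and is also made by oligodendrocytes. Its levels were 271, 335 and 175 CPM in WT and 278, 243 and 245 CPM in KO, with WT F1 the lowest. The summed CPM of 8 oligodendrocyte markers was highest in that same library, at 3830, against 3160 to 3728 in the other 5. Klotho, the co-receptor for a phosphate-regulating hormone encoded by Kl, had 22.1, 31.3 and 15.1 CPM in WT and 28.3, 23.9 and 16.2 CPM in KO. In both genotypes the female library was lowest for Kl. Sostdc1, a secreted antagonist of BMP and Wnt signals, ranged from 2.24 to 5.91 CPM in WT and from 2.52 to 4.83 CPM in KO. F5 encodes coagulation factor V and had 8.90, 11.7 and 3.80 CPM in WT and 14.0, 8.34 and 5.98 CPM in KO. Its log2 difference, 0.29 (SE 0.25, edgeR adjusted p = 0.801), had the smallest p of the 13, and the genotypes overlapped.

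Transporters and channels showed the same order of the WT libraries. Folr1, the folate receptor that carries folate into the fluid, had 2.12, 3.49 and 0.509 CPM in WT and 2.12, 2.06 and 1.59 CPM in KO. WT F1 thus held less than any other library, and the log2 difference between genotypes was 0.20 (SE 0.46, edgeR adjusted p = 0.924). Folr1 overlaps Anapc15, and no strand setting of the counting is known, so shared reads could not be told apart. Aqp1, the water channel of the apical membrane, had 4.02, 4.26 and 1.15 CPM in WT and 3.09, 2.61 and 2.97 CPM in KO. Slc4a5, a sodium bicarbonate cotransporter, had 2.83, 7.07 and 1.68 CPM in WT and 4.90, 3.87 and 3.36 CPM in KO. Clic6, a member of the chloride intracellular channel family, ranged from 12.9 to 23.8 CPM in WT and from 16.6 to 19.1 CPM in KO. Cldn2, a claudin of leaky tight junctions, ranged from 1.32 to 3.91 CPM in WT and from 1.76 to 3.23 CPM in KO. Calml4, a calmodulin-like protein, ranged from 0.662 to 1.58 CPM in WT and from 0.907 to 1.35 CPM in KO. For each of these genes WT F1 was the lowest of the 6 libraries.

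Otx2 and Prlr had the same order of the WT libraries, but their extremes lay in KO. Otx2 encodes a homeodomain factor needed for choroid plexus identity and is also expressed in other parts of the brain. It had 3.93, 5.23 and 2.75 CPM in WT and 7.12, 2.59 and 5.32 CPM in KO, highest in KO replicate 1 and lowest in KO replicate 2. Prlr, the prolactin receptor, which hypothalamic neurons express too, had 12.5, 13.1 and 12.3 CPM in WT and 15.2, 7.13 and 9.22 CPM in KO. Its extremes fell in the same 2 libraries as those of Otx2. A list of 6 thalamus genes had its highest summed level, 251 CPM, in KO replicate 1 and its lowest, 73.5 CPM, in KO replicate 2. Its part in the levels of Otx2 and Prlr was not tested. The genotype difference was 0.36 for Otx2 (SE 0.40, edgeR adjusted p = 0.833) and -0.28 for Prlr (SE 0.27, edgeR adjusted p = 0.817) on the log2 scale. With library totals or TPM as the scale, all KO libraries lay below all WT libraries for Prlr. The median log2 difference of all tested genes was also below 0 there, at -0.17 with library totals and -0.24 with TPM. How many of all tested genes separated on those scales was not counted. On the TMM scale the difference of Prlr was -0.04 without KO replicate 2 and -0.66 without KO replicate 1.

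**Figure D1:**
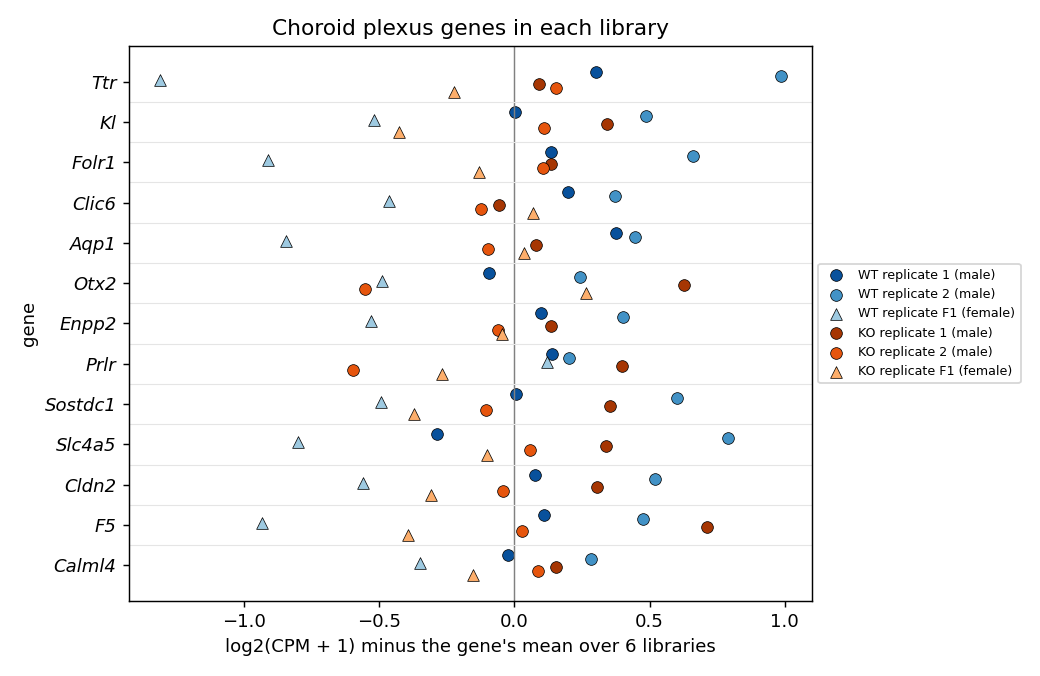
Level of each of the 13 choroid plexus genes (rows) in each of the 6 libraries, as log2(CPM + 1) minus the mean of the gene over the 6 libraries; circles are male and triangles female libraries, blue WT and orange KO. WT replicate 2 was highest for 10 genes and WT replicate F1 lowest for 11, the exceptions at the low end being Otx2 and Prlr.

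Counted over the class, 10 of 13 choroid plexus genes were highest in WT replicate 2, where 13% of all tested genes were highest. The other 3, Otx2, Prlr and F5, were highest in KO replicate 1. WT F1 was lowest for 11 of 13, against 20.4% of all tested genes. The 23 further choroid plexus genes of a wider list shared these extremes in part, with 13 highest in WT replicate 2 and 13 lowest in WT F1. Summed TPM over the 13 genes was 1065, 1613 and 435 in WT and 613, 869 and 784 in KO. Without Ttr the sums were 265, 334 and 171 in WT and 180, 218 and 243 in KO. Summed CPM over the 13 genes was 771, 1114 and 365 in WT and 738, 691 and 603 in KO. KO replicate 1, with 38.6% of its TPM mitochondrial, was thus the lowest KO library in TPM and the highest in CPM. The highest and lowest sums both lay in WT, in CPM and in TPM with and without Ttr.

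Counts relative to Ttr, a comparison chosen after the levels had been seen, are given for 3 genes. Of the choroid plexus genes other than Ttr, 7 had a narrower range on this scale than in CPM and 5 a wider one. Folr1 and Aqp1 had the narrowest ranges on this scale and Prlr the widest. Folr1 had 5.11, 5.22 and 3.76 counts per 1000 counts of Ttr in the WT libraries and 5.91, 5.49 and 5.52 in the KO libraries. Aqp1 had 9.69, 6.39 and 8.53 in WT and 8.62, 6.98 and 10.3 in KO. Their ranges were 1.57-fold and 1.61-fold on this scale, against 6.84-fold and 3.69-fold for their own CPM. Prlr had 30.2, 19.7 and 91.2 in WT and 42.3, 19.0 and 31.9 in KO. Ttr itself differed 4.93-fold between libraries, so a gene with a smaller range of its own, such as Prlr with 2.13-fold, can widen in the ratio whether or not it follows Ttr.

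None of the 12 ependyma genes passed the test between genotypes, and the direction of the class median did not hold with each library left out. In the genotype fit 8 of 12 had a log2 difference below 0, with a median of -0.15, where 50.6% of all tested genes lay below 0 with a median of -0.00. Without KO replicate 2, 4 of 12 lay below 0 and the median was 0.21. With all 6 libraries, the log2 ratio of the mean summed CPM was -0.01. Foxj1, the forkhead factor that switches on motile cilia genes, had 14.1, 14.8 and 12.99 CPM in WT and 12.9, 9.99 and 9.58 CPM in KO. Every KO library lay below every WT library, although WT F1 and KO replicate 1 nearly met. Its log2 difference was -0.37 (SE 0.14, edgeR adjusted p = 0.735), and the direction held under all 16 alternative settings. Under the size factors of DESeq2 the genotypes overlapped for Foxj1. In TPM it averaged 12.5 ± 0.737 in WT and 7.86 ± 0.579 in KO (SD, n = 3 each), but on that scale the median of all tested genes also lay 0.24 log2 units lower in KO. Foxj1 lies on chromosome 11 from 116330704 to 116335399 on the minus strand, read as GRCm38.

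Rarres2 and Cfap43 had the same separation. Rarres2 encodes chemerin, a secreted attractant for immune cells, and had 5.83, 5.68 and 6.45 CPM in WT and 4.24, 4.74 and 5.49 CPM in KO. Its difference was -0.31 (SE 0.15, edgeR adjusted p = 0.735). Cfap43, a cilia and flagella protein whose promoter window is printed above, had 2.94, 2.59 and 2.89 CPM in WT and 2.47, 2.12 and 2.28 CPM in KO. Its difference was -0.29 (SE 0.19, edgeR adjusted p = 0.761). Rarres2 overlaps Lrrc61, and Cfap43 overlaps Gsto1 and Gsto2. These 3 of 29 tested members had all KO libraries below all WT libraries, beside 7.32% of all tested genes, and none had all KO libraries above, beside 6.61%.

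Tmem212 and Cfap54 had the largest differences of the class, in opposite directions. Tmem212 encodes a membrane protein that marks ependymal cells and was counted 45, 40 and 35 times in WT and 6, 14 and 28 times in KO. That is 0.994, 0.942 and 0.594 CPM in WT and 0.208, 0.313 and 0.686 CPM in KO, so KO F1 lay above WT F1. The log2 difference was -1.10 (SE 0.51, edgeR adjusted p = 0.735). Without either female library it was -1.85, the contrast of the males. Cfap54, needed for normal motion of ependymal cilia, had 5.19, 6.03 and 12.6 CPM in WT and 14.8, 12.2 and 12.0 CPM in KO. Both WT males lay near 5 to 6 CPM, while WT F1 lay among the KO libraries. The log2 difference was 0.82 (SE 0.29, edgeR adjusted p = 0.735), the smallest unadjusted p of the 29 members, and without either female library it was 1.26. The gene spans 92775619 to 93081618 on the minus strand of chromosome 10.

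The other 7 ependyma genes overlapped between genotypes. Ccdc153, a coiled-coil protein used as an ependymal marker, had 4.20, 3.82 and 2.90 CPM in WT and 4.20, 1.65 and 3.97 CPM in KO (log2 difference -0.16, SE 0.38, edgeR adjusted p = 0.925). Ak7, an adenylate kinase of cilia, had 5.04, 4.55 and 3.57 CPM in WT and 4.06, 1.97 and 4.68 CPM in KO. Spag16, a protein of the central microtubule pair, had 1.83, 1.86 and 1.44 CPM in WT and 2.33, 0.603 and 1.79 CPM in KO. For each of these 3 genes KO replicate 2 was the lowest library and the other KO libraries lay within or above the WT range. Hydin, of the same central apparatus, had 5.28, 4.05 and 3.91 CPM in WT and 5.63, 3.02 and 4.12 CPM in KO. Rsph1, a radial spoke head protein, had 7.13, 5.91 and 4.92 CPM in WT and 8.20, 6.66 and 6.08 CPM in KO (log2 difference 0.22, SE 0.16, edgeR adjusted p = 0.778). The dynein components Dynlrb2 and Dnah11 ranged from 0.798 to 2.002 and from 1.48 to 2.33 CPM in WT, and from 0.939 to 2.03 and from 1.81 to 2.95 CPM in KO. Dnah11 overlaps Cdca7l.

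**Figure D2:**
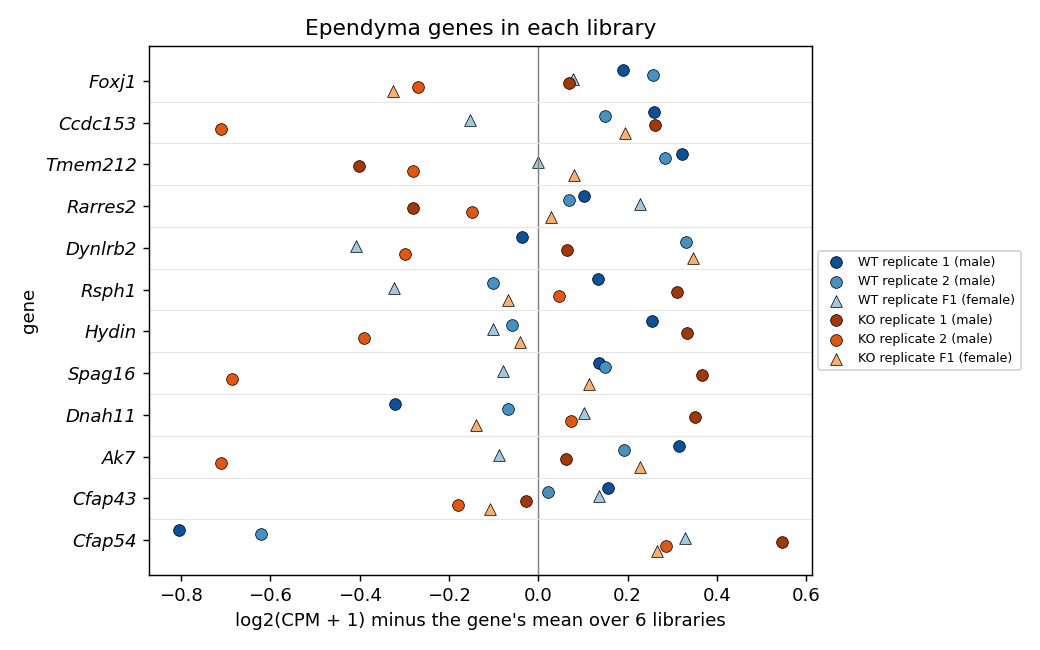
Level of each of the 12 ependyma genes (rows) in each of the 6 libraries, as log2(CPM + 1) minus the mean of the gene over the 6 libraries, with symbols as for the choroid plexus genes. KO replicate 1 was highest for 6 genes and KO replicate 2 lowest for 5, and for Foxj1, Rarres2 and Cfap43 the KO and WT libraries did not overlap.

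The ependyma genes shared less of a library order than the choroid plexus genes. KO replicate 1 was highest for 6 of 12, where 28.3% of all tested genes were highest, and KO replicate 2 was lowest for 5 of 12, where 14.6% were lowest. Without KO replicate 1, which stands apart in its mitochondrial share, 8 of 12 lay below 0 with a median of -0.34. Summed TPM of the 12 genes was 73.1, 72.5 and 62.4 in WT and 44.9, 46.7 and 66.2 in KO, a log2 ratio of the means of -0.40. Summed CPM was 55.4, 54.2 and 55.4 in WT and 63.4, 46.4 and 54.5 in KO. On both scales the KO libraries spread more widely than the WT libraries. The mitochondrial share of TPM was 38.6% in KO replicate 1 and 16.1% to 19.6% in the others, and it lowers every other gene's TPM in that library.

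The 5 genes listed for tanycytes did not behave as 1 group, and their most specific member was nearly absent. Rax, the homeobox gene that defines tanycytes in the adult hypothalamus, was counted 14, 0 and 2 times in WT and 0, 6 and 0 times in KO. A count of 0 allows up to 3 counts, that is 0.0707 CPM in WT replicate 2, 0.104 CPM in KO replicate 1 and 0.0735 CPM in KO F1, for counting error only. Only WT replicate 1 and KO replicate 2 held more than 3 counts of Rax, so the tanycyte label rests on little in the other libraries. The remaining genes are known from other cells as well, Dio2 from astrocytes and Crym and Lhx2 from forebrain neurons.

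Dio2 encodes the deiodinase that converts thyroxine to its active form, and it had 57.2, 63.8 and 33.5 CPM in WT and 68.5, 64.1 and 53.3 CPM in KO. The female library was lowest in both genotypes, and the genotype difference was 0.31 (SE 0.14, edgeR adjusted p = 0.735) on the log2 scale. Summed CPM of 8 astrocyte markers ran from 2933 to 3013 in WT and from 2914 to 4009 in KO, highest in KO replicate 1 like Dio2. The part of astrocyte transcripts in this difference was not tested. Dio2 also overlaps the gene model Gm26512. Crym encodes a thyroid hormone binding protein and had 39.9, 42.3 and 57.3 CPM in WT and 22.9, 53.7 and 39.4 CPM in KO (log2 difference -0.25, SE 0.31, edgeR adjusted p = 0.855). Lhx2, a LIM homeodomain factor, had 49.2, 54.6 and 51.1 CPM in WT and 61.8, 77.7 and 52.8 CPM in KO. Its difference was 0.30 (SE 0.14, edgeR adjusted p = 0.735). The library with most Lhx2, KO replicate 2, also had the highest summed CPM of 6 cortex and hippocampus genes, 1447 against 884 to 1187 in the other 5. Between KO and WT all 6 of those genes lay above 0, with a median log2 difference of 0.39 and 0 called. Their part in the level of Lhx2 was not tested. Gpr50, an orphan receptor related to the melatonin receptors, had 3.93, 1.63 and 2.31 CPM in WT and 2.22, 0.469 and 1.495 CPM in KO (log2 difference -0.93, SE 0.59, edgeR adjusted p = 0.760). That difference was -0.45 without WT replicate 1 or without KO replicate 2, and -1.61 without KO replicate 1.

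Across the whole list, edgeR's quasi-likelihood test called 0 of 29 tested members between KO and WT at an adjusted p of 0.05, where it called 0.00528% of all tested genes (1 of 18956). DESeq2 also called 0 members and 0.390% of all tested genes. At an unadjusted p under 0.05 edgeR gave 2 of 29 members, beside 6.38% of all tested genes. Cfap54 was higher in KO, as were 3.85% of all tested genes at that p, and Foxj1 was lower, as were 2.53%. Adjusted p-values of the members ran from 0.735 to 0.991. There were 14 log2 differences above 0 and 15 below. By class, the median was 0.02 for the choroid plexus (8 above 0, 5 below), -0.15 for ependyma (4 above, 8 below) and 0.03 for the 4 tested tanycyte genes (2 above, 2 below). With library totals the choroid plexus median was -0.16, with 9 of 13 below 0, where the median of all tested genes was -0.17. In simulated counts of this comparison the test recovered 62% of genes changed by 1 log2 unit and 98% of those changed by 2, so smaller differences than these could go undetected. The simulation changed 100 genes at each size, which eases the adjusted threshold compared with data that gave 1 call. All changed genes had a mean above 1 CPM, so the rates do not cover members below it, such as Tmem212. They were drawn at random from all such genes, so the rates are averages over steady and variable genes. Members such as Ttr, Folr1 and Gpr50 had standard errors of 0.39, 0.46 and 0.59. Recovery among genes that variable was not counted.

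**Figure D3:**
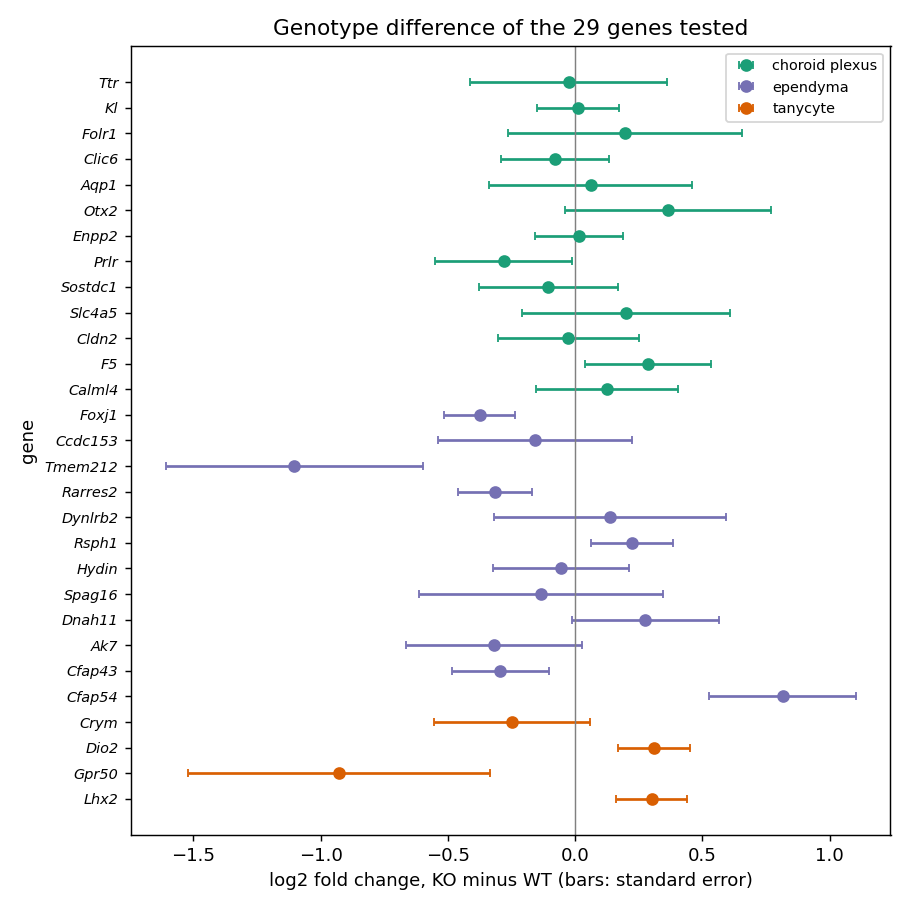
Log2 difference between KO and WT with its standard error for the 29 tested members (rows), grouped by cell class and taken from the edgeR fit with genotype and sex. The differences run from -1.10 for Tmem212 to 0.82 for Cfap54, and none passed the adjusted threshold.

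The choroid plexus class depended on which libraries were compared. In males alone 11 of 13 genes lay below 0 with a median of -0.22, and without WT replicate 2 the class turned, with 12 of 13 above 0 and a median of 0.24. In a fit of the 4 libraries other than WT F1 and KO replicate 1, without a sex term, all 13 lay below 0 with a median of -0.52. That fit was chosen after the data had been seen, and its only female library is KO, so sex and genotype cannot be told apart in it. No member was called in any of these fits.

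The 2 female libraries allowed the genes to be read by sex, with 1 female per genotype. In the same fit, all 13 choroid plexus genes had a log2 difference below 0 for female against male, beside 50.1% of all tested genes. Their median was -0.80, and that of all tested genes was -0.00. This direction was not particular to the class, as 0 of 6 cortex and hippocampus genes lay above 0, with a median of -0.57. The other way, 10 of 10 meningeal fibroblast genes and 8 of 8 oligodendrocyte genes lay above 0. The difference was -0.76 for Kl (SE 0.18), -1.16 for F5 (SE 0.28), -1.09 for Ttr (SE 0.43) and -1.30 for Folr1 (SE 0.52). edgeR called 0 of 29 members by sex, with adjusted p-values of 0.941 or more, and 0.0422% of all tested genes. At an unadjusted p under 0.05 it gave 8 members, of which 7 were choroid plexus genes and 1 was Dio2, beside 4.58% of all tested genes. DESeq2 called 1 member, F5 (adjusted p = 0.0356), and 0.274% of all tested genes. WT F1 lay below both WT males for 13 of 13 choroid plexus genes, beside 38.9% of all tested genes, and KO F1 lay below both KO males for 8 of 13, beside 31.5%. With 1 female in each genotype, sex and the individual library cannot be told apart.

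On the log2(CPM + 1) scale the genotype difference had opposite signs in the sexes for 11 of 13 choroid plexus genes. It lay below 0 in males and above 0 in females for these, beside 25.2% of all tested genes. Prlr lay below 0 in both sexes and F5 above 0 in both. The male KO mean lay below the male WT mean for 12 of 13 genes, beside 52% of all tested genes. Several male differences were close to 0, at -0.01 for Calml4, -0.02 for Kl, -0.04 for Otx2 and -0.05 for Slc4a5. In the edgeR fit of males alone Otx2 lay above 0, at 0.07, so the count depends on the scale. The 1 female KO library lay above the 1 female WT library, the lowest library for 11 of 13 genes, for 12 of 13, beside 49.3%. For Ttr these differences were -0.52 in males and 1.09 in females. An interaction of genotype and sex, which leaves 2 residual degrees of freedom, was called by edgeR for 0 of 29 members and 0.0739% of all tested genes. At an unadjusted p under 0.05 it gave 8 members, beside 7.42% of all tested genes. In simulated counts this interaction test recovered 1% of genes changed by 1 log2 unit and 43% of those changed by 2. The absence of calls therefore says little. Ttr had an interaction of 1.66 (SE 0.39, edgeR adjusted p = 0.325) and Aqp1 one of 1.90 (SE 0.41, edgeR adjusted p = 0.309). DESeq2 called the interaction of Ttr (adjusted p = 0.0114) and of no other member, beside 1.27% of all tested genes. WT F1 was the library with the lowest level of both genes. Among ependyma genes Cfap54 had an interaction of -1.33 (SE 0.31, edgeR adjusted p = 0.325), with its WT F1 level among those of the KO libraries.

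Wider lists of the same cell classes gave no call either. Of 22 tested genes of a wider choroid plexus list, 8 lay above 0 and 14 below, with a median of -0.06. Its smallest p-values were those of Car12, a membrane carbonic anhydrase (0.28, SE 0.11, edgeR adjusted p = 0.735), and Lmx1a, a roof plate homeodomain factor (-1.13, SE 0.45, edgeR adjusted p = 0.735). Of 31 further motile cilia genes, 11 lay above 0 and 20 below, with a median of -0.10. Daw1, a dynein assembly factor, had 0.707, 0.683 and 0.340 CPM in WT and 0.208, 0.0894 and 0.0245 CPM in KO, and it was listed with its values known. Its log2 difference was -2.55 (SE 0.51, edgeR adjusted p = 0.735), and the 3 KO libraries held 6, 4 and 1 counts of it. Cfap44, which works in the same axonemal complex as the product of Cfap43, had 5.37, 4.38 and 5.79 CPM in WT and 4.10, 3.11 and 3.70 CPM in KO. Every KO library lay below every WT library for Cfap44, with a difference of -0.51 (SE 0.19, edgeR adjusted p = 0.735). Of the 31 genes, 4 had all KO libraries below all WT libraries, beside 7.32% of all tested genes. Daw1 is counted in these 4 and in the 20 below 0. As it was listed with its values known, it adds no independent weight to either count. All KO libraries lay above for 1 of the 31, beside 6.61%.

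Of 8 tested regulators of multiciliated cells, 5 lay above 0 and 3 below, from -0.64 to 0.70 with a median of 0.07, and none passed the test. Mcidas, which starts the multiciliation program, differed by 0.70 (SE 0.34, edgeR adjusted p = 0.735) at 0.289 to 0.539 CPM, and Myb by -0.64 (SE 0.46, edgeR adjusted p = 0.777). Of 12 tested genes of a wider tanycyte list, 6 lay above 0 and 6 below. Adm, which encodes the peptide adrenomedullin and is also made by blood vessels, had 1.63, 1.60 and 2.05 CPM in WT and 2.74, 3.31 and 3.75 CPM in KO. Every KO library lay above every WT library, with a difference of 0.89 (SE 0.19, edgeR adjusted p = 0.735, DESeq2 adjusted p = 0.0691). Of the 12 genes, 1 had all KO libraries above all WT libraries and 1 all below, beside 6.61% and 7.32% of all tested genes. Nes, the intermediate filament nestin, differed by -0.17 (SE 0.11, edgeR adjusted p = 0.770).

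Markers of neighbouring cells and regions had several orders across the libraries. Summed CPM of 10 meningeal fibroblast genes ran from 91.7 to 175 in WT and from 103 to 151 in KO, and WT F1 was the highest of the 6. Summed CPM of 6 paraventricular neuron genes ran from 29.8 in WT replicate 2 to 107 in WT F1, with 36.6 to 53.0 in KO. The choroid plexus sums had the opposite extremes, highest in WT replicate 2 and lowest in WT F1. For 6 arcuate nucleus genes the sums ran from 55.0 to 91.5 in WT and from 78.9 to 103 in KO. These sums and those of the cortex and hippocampus genes were lowest in WT F1, as most choroid plexus genes were. Gene by gene, WT F1 was lowest for 5 of the 6 cortex and hippocampus genes but for 2 of the 6 arcuate genes. Npy carried most of the arcuate sum. In TPM without Npy the arcuate sums were 61.4, 32.6 and 48.3 in WT and 34.4, 34.1 and 36.0 in KO, so WT F1 was not lowest. None of these lists had a gene at 0 in any library, and their part in the ventricular genes' levels was not tested.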

How the data were processed

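Messenger RNA of 6 libraries was analysed. Per the file headers, the authors deposited a whole-number count, a TPM and an FPKM value per gene and library. The FPKM values were not used. The submitters' processing notes name Trimmomatic 0.36, FastQC 0.11.2 and bedtools 2.26.0. Which aligner, counter, strand setting and build were used is not given in the sources used here. Of the gene identifiers 99.6% matched GENCODE M21 (GRCm38).

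Counts were filtered by filterByExpr, scaled by TMM and tested with edgeR 4.0.16 (R 4.3.3, robust quasi-likelihood, genotype and sex as terms, 3 residual degrees of freedom). P-values were adjusted by Benjamini-Hochberg over all 18956 genes. Standard errors are the log2 fold change over the square root of F. DESeq2 1.42.0 (Wald test) and limma 3.58.1 on log2(TPM + 1) were alternatives. The test was checked on simulated counts. Depth was 35114426 to 54421330 counts per library.

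Members and lists were chosen with earlier results of these data known. By rule, full statistics go to the 10 members with the smallest p and to Ttr, Folr1, Foxj1, Ccdc153, Dio2 and Crym, with counts alone for Rax, which was not tested. Statistics of Otx2, Prlr, Kl and Aqp1 were added after their values were seen. Each wider list is named by its 2 smallest p-values. Slco1a5, Fndc3c1 and Rax did not pass the filter, and Tp73 was not analysed here.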

Additional observations from a re-analysis of the deposited data

How the results depend on the processing

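No member was called under any of the 16 alternatives to the genotype fit. Prlr, Foxj1, Rarres2, Cfap43, Cfap54 and Gpr50 kept their direction in all 16, and Tmem212 in the 15 that tested it. Their size did not hold as well with each library left out: -0.66 to -0.04 for Prlr, -0.49 to -0.28 for Foxj1, -0.36 to -0.26 for Rarres2, -0.36 to -0.24 for Cfap43, 0.61 to 1.26 for Cfap54, -1.61 to -0.45 for Gpr50 and -1.85 to -0.76 for Tmem212. The lowest adjusted p of Cfap54 was 0.0849 and the highest 0.999.

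Genes called between KO and WT numbered 4 with no filter on low counts, 74 with DESeq2, 4 with limma on TPM, 3 without the sex term, 18 in males only, 27 without WT F1 and KO replicate 1, and 0 to 20 with each library left out in turn. The ependyma median was -0.351 with library totals, -0.407 with limma on TPM, -0.349 in males only, -0.356 without WT F1 and KO replicate 1, and -0.349 to 0.212 with each library left out. The tanycyte median was -0.119 with library totals, -0.257 with no filter, where Rax enters, -0.336 with limma on TPM, and -0.143 to 0.170 with each library left out. The choroid plexus median was -0.522 without WT F1 and KO replicate 1 and -0.219 to 0.238 with each library left out. The ependyma sum ratio was -0.005 in CPM. The median over all genes was -0.169 with library totals and -0.239 with limma on TPM, beside which the differences on those scales are read. Apart from what these scales and smaller sets of samples entail, the cause was not tested.

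Signs turned as follows on the log2 scale. With library totals they became -0.16 for Kl, -0.11 for Aqp1, -0.16 for Enpp2, -0.04 for Calml4 and -0.05 for Dynlrb2. With no filter Kl became 0.00. With limma on TPM they became -0.25 for Kl, -0.08 for Folr1, -0.19 for Aqp1, -0.23 for Enpp2, -0.05 for Slc4a5, -0.04 for F5, -0.04 for Calml4, -0.12 for Dynlrb2, -0.06 for Rsph1, -0.09 for Dnah11 and -0.06 for Lhx2. Without the sex term they became 0.00 for Kl, -0.07 for Folr1, -0.12 for Aqp1 and -0.03 for Enpp2. In males only they became -0.03 for Kl, -0.42 for Folr1, -0.54 for Aqp1, -0.22 for Enpp2, -0.18 for Slc4a5, -0.03 for Calml4 and -0.47 for Dynlrb2. Without WT F1 and KO replicate 1 they became -0.41 for Kl, -0.61 for Folr1, -0.57 for Aqp1, -0.21 for Otx2, -0.31 for Enpp2, -0.45 for Slc4a5, -0.52 for F5, -0.29 for Calml4, -0.16 for Dynlrb2, -0.03 for Rsph1, 0.18 for Crym and -0.04 for Dio2. With each library left out in turn the differences ran from -0.56 to 0.34 for Ttr, -0.11 to 0.18 for Kl, -0.42 to 0.62 for Folr1, -0.40 to 0.06 for Clic6, -0.54 to 0.36 for Aqp1, -0.02 to 0.77 for Otx2, -0.22 to 0.17 for Enpp2, -0.26 to 0.17 for Sostdc1, -0.18 to 0.78 for Slc4a5, -0.24 to 0.22 for Cldn2, -0.03 to 0.34 for Calml4, -0.48 to 0.24 for Ccdc153, -0.47 to 0.52 for Dynlrb2, -0.32 to 0.19 for Hydin, -0.70 to 0.32 for Spag16, -0.68 to 0.04 for Ak7 and -0.71 to 0.00 for Crym. Leaving out either female leaves the contrast of the males.

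With the replicate number as a block, 0 genes and 0 members were called, the medians were 0.022, -0.253 and -0.019 for the 3 classes, and Ttr became 0.01. Over all tested genes, the deviations of same-numbered libraries had correlations of -0.038, 0.021 and 0.014, so no pairing by number was seen at that level. With 3 libraries per genotype, a pairing that touches only part of the genes was not tested.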
